A study of Mus musculus with 10 samples.

Results

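The genes described here encode the proteins of the cytosolic ribosome in the mouse colorectum. They were chosen by symbol, as Rpl or Rps followed by a number, with Rplp0, Rplp1, Rplp2 and Rpsa added and named pseudogenes left out. Of 23284 listed features, 85 matched, and 81 of these had values above the floor of the deposited scale in both libraries of at least 1 group and were tested. By symbol, these 81 comprised 48 genes of the large subunit and 33 of the small subunit. The 33 include Rps4y2, which GENCODE annotates as a transcribed processed pseudogene.

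Messenger RNA of the colorectum of BALB/c mice, 7 weeks old, was sequenced in 10 libraries, 2 for each of 5 groups. Normal mice received neither dextran sodium sulfate (DSS, a polysaccharide that provokes colitis) nor injections, and their tissue was taken on day 0. The other mice all received 2% DSS and tail vein injections of a miRNA loaded in super carbonate apatite (sCA), a mineral nanoparticle carrier, on days 1 to 3. They received a negative control miRNA (NC-miR) and gave tissue on day 2 or day 4, or received miR-29a or miR-29b and gave tissue on day 4. The labels give injections up to day 3 also for the NC-miR day 2 group. Normal mice differed from all others in DSS, in injections and in day of collection, which cannot be told apart, and no group received sCA without a miRNA. The labels do not say how mice relate to libraries, so p-values measure only the spread between these libraries, which may be technical.

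The deposited value of a gene is a log2 ratio to a baseline of that gene, which is not stated. Values can therefore be compared between libraries for a gene, but not as levels between genes, and the depth behind them is unknown. Each library had 12679 to 12940 features above the floor, and all 10 epithelial markers examined (the colorectum label) were above it in every library. The median of these epithelial markers was 0.31 and 0.40 in miR-29b and -0.18 to 0.10 elsewhere. The libraries differed in markers of other tissue: the median of 3 tested squamous epithelial markers was 4.97 in NC-miR day 4 replicate 1 and -0.56 to 0.19 in the other libraries. Of 10 squamous markers, 4 were at the floor in that library and 7 to 9 in each of the others. The median of 12 crypt and cell cycle markers was -1.09 in miR-29b replicate 1 and -0.35 to 0.52 elsewhere. The median of 9 smooth muscle markers was -0.45 in NC-miR day 4 replicate 2 and -0.11 to 0.21 elsewhere. That of 9 B cell markers was 1.32 and 1.53 in normal and -0.69 to 0.72 elsewhere. Colonocyte markers (10 genes) had medians of -0.34 and -0.50 in normal, 0.24 and 0.30 in NC-miR day 4 and -0.098 to 0.43 over the 8 libraries outside normal, and 8 tested goblet cell markers had -0.29 and -0.31 in normal and -0.21 to 0.50 elsewhere. The median of 3 tested neutrophil markers was 2.65 in NC-miR day 2 replicate 1 and -1.18 to 0.98 elsewhere. Adipocyte markers (7 tested) differed between replicates, with medians of -1.44 and 0.12 in normal, 0.91 and -0.66 in miR-29a, and -0.33 and 0.82 in miR-29b. In the NC-miR libraries they were -0.17 to 0.89. The part of all these markers in the results was not tested.

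A cytosolic ribosome consists of a large and a small subunit, each an assembly of ribosomal RNA and many different proteins that are needed in nearly equal amounts. The mRNAs of ribosomal proteins begin with a C followed by a run of pyrimidines (the 5′ terminal oligopyrimidine, or TOP, tract), through which their translation responds to nutrient and growth signals by way of the kinase mTOR. Their genes are active in all nucleated cells, and most have given rise to many intronless pseudogene copies elsewhere in the genome.

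Promoters are shown because most members varied together across the libraries, as described further on. RefSeq promoter sequences (GRCm38.p6) matched 64 of the 85 members. A C followed by 4 pyrimidines (C or T) began exactly at the annotated start in 12 of 64 members (18.8%), and in 2.49% of 27025 mouse promoters in the same table. Allowing the tract to begin within 5 bases of the start gave 28 members (43.8%) and 18.5% of all promoters. CCGGAA or its complement TTCCGG, the core of Ets-family binding motifs, was found in the window from 250 bases before to 50 bases after the start in 32 members (50%) and in 15.2% of all promoters. AAGATGGC or GCCATCTT, the core of the YY1 motif, was present in 5 members (7.81%) and in 2.88% of all, and TATAAA or TTTATA in 6 members (9.38%) and in 14.2% of all. These are letter matches on both strands (for the tract, on the gene's strand only), the end of TTCCGG can share bases with a pyrimidine tract, and no binding was measured.

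The sequences below run from 60 bases before to 20 bases from the annotated start, 5′ to 3′ on the gene's strand, with the pyrimidine tract and CCGGAA or TTCCGG in capitals. The first 5 show a tract that begins at the start, Rpl38 and Rps10 with the Ets core as well. Rps27 is shown as the member that departed most from the others in its values, and its tract runs into TTCCGG. Rpl7l1, a paralog of Rpl7, is shown because neither sequence is in its window and its values did not follow the common pattern. The windows of Rps3, Rpl23 and Rplp0, not shown, also hold neither sequence, yet these genes followed the pattern closely. Their Pearson correlation with the median of the other members was 0.98 each. Rps27l has both sequences in its window and a correlation of 0.49. A link between these sequences and the values was not tested. The windows are chr14:18270967-18271046 (Rpl15), chr4:86857348-86857427 (Rps6), chr7:141447591-141447670 (Rplp2), chr11:114668520-114668599 (Rpl38), chr17:27635225-27635304 (Rps10), chr3:90213629-90213708 (Rps27) and chr17:46782637-46782716 (Rpl7l1), with Rplp2 and Rpl38 on the plus strand and the others on the minus strand.
Rpl15: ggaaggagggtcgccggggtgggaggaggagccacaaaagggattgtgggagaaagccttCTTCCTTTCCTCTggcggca
Rps6: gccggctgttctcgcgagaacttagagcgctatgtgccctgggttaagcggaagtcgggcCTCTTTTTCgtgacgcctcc
Rplp2: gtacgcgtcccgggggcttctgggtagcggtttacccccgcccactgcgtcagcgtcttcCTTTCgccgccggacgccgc
Rpl38: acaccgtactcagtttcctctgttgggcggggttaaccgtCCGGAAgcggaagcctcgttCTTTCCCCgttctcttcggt
Rps10: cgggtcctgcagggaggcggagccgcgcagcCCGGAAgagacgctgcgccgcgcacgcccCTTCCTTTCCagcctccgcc
Rps27: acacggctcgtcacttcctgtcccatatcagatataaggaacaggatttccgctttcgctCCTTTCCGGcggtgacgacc
Rpl7l1: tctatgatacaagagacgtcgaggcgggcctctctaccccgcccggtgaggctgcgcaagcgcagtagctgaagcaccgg

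The ribosomal protein genes moved as a block from library to library, and the block was lowest in NC-miR day 4. The median value over the 81 genes was 0.16 and -0.052 in the normal libraries (replicates 1 and 2), -0.032 and -0.050 in NC-miR day 2, and -0.39 and -0.17 in NC-miR day 4. It was 0.17 and 0.10 in miR-29a and -0.26 and 0.25 in miR-29b. Both NC-miR day 4 libraries lay below both normal, both NC-miR day 2 and both miR-29a libraries, while the miR-29b libraries stood at opposite ends and overlapped every other group. In bulk tissue, fewer cells rich in these mRNAs and less of them per cell cannot be told apart.

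**Figure D1:**
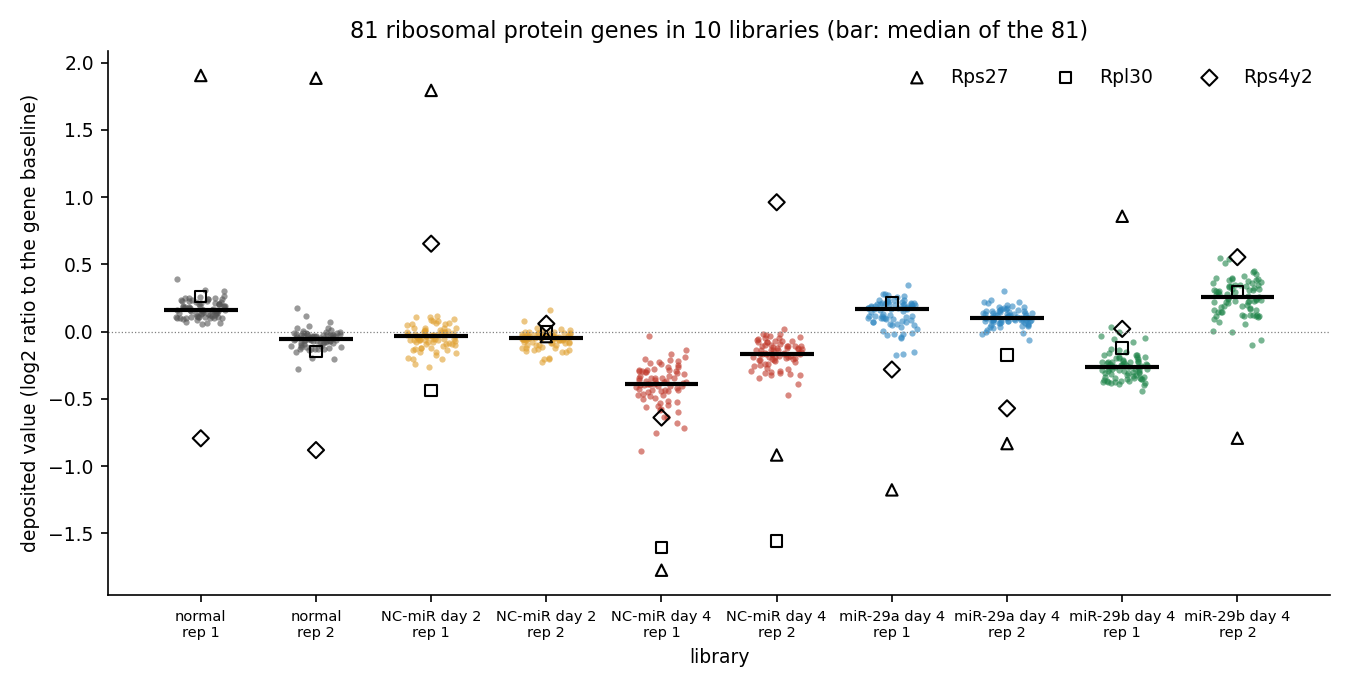
Deposited value (log2 ratio to the gene baseline, y axis) of each tested ribosomal protein gene in each of the 10 libraries (x axis), 1 point per gene, with a bar at the median of the 81 genes and open symbols for Rps27, Rpl30 and Rps4y2. The bars run from -0.39 in NC-miR day 4 replicate 1 to 0.25 in miR-29b replicate 2, and most genes lie close to their library's bar.

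In order of the mean of the library medians, the groups were miR-29a (0.14 ± 0.048, SD, n = 2), normal (0.055 ± 0.15), miR-29b (-0.0028 ± 0.36), NC-miR day 2 (-0.041 ± 0.013) and NC-miR day 4 (-0.28 ± 0.16). The full range of these means was 0.41. The gap between replicates reached 0.51, in miR-29b, so neighbours in this order did not differ beyond the spread between libraries, with the exception that both NC-miR day 2 libraries lay above both NC-miR day 4 libraries. In NC-miR day 4, 81 and 79 of the 81 genes were below 0. In miR-29a 70 and 74 were above 0, in miR-29b 3 and 77, in normal 80 and 9, and in NC-miR day 2 only 23 and 8.

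Large and small subunit genes gave nearly the same medians. In NC-miR day 4 replicate 1 they were -0.37 over the 48 large-subunit genes and -0.40 over the 33 small-subunit genes, and in miR-29b replicate 2 they were 0.27 and 0.25. No library placed the subunits on opposite sides of 0.

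The genes differed little from one another within a library. After subtraction of the library's median, the SD of a gene over the 10 libraries was 0.075 (median of the 81 genes), against 0.22 before subtraction and 0.21 for all 13051 features tested, which is also before subtraction. It was under 0.1 for 60 of the 81 genes and over 0.5 for Rps27 (1.39), Rps4y2 (0.68) and Rpl30 (0.56). The next highest was Rps28, at 0.23. For 62 genes, the Pearson correlation with the median of the other members over the 10 libraries was above 0.9, and the median correlation over all pairs of members was 0.88. By the same measure, 51 subunits of the respiratory chain gave 0.70, 14 proteasome subunits 0.77, 25 translation factors and related genes 0.50 and 42 ribosome biogenesis genes 0.44. These correlations describe genes that share the same 10 libraries, and they are given without a test.

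**Figure D2:**
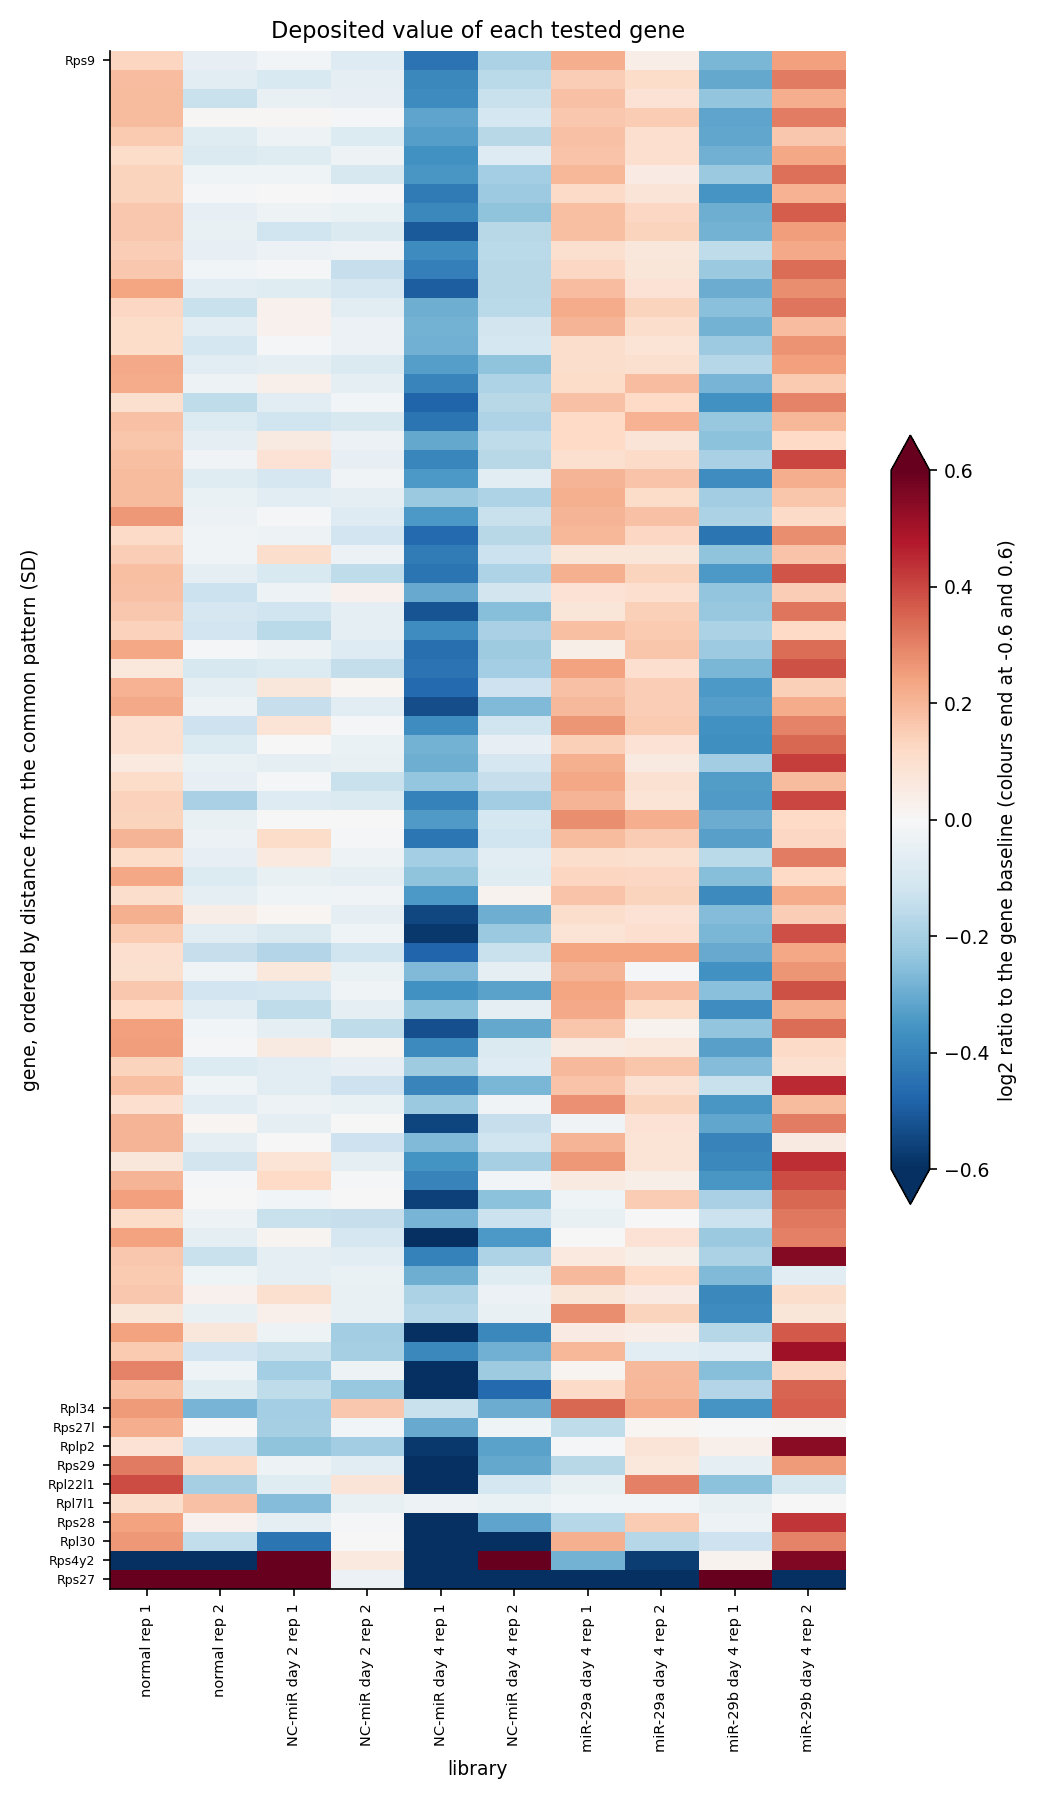
Heat map of the deposited value (log2 ratio to the gene baseline, colour) of each of the 81 genes (rows) in the 10 libraries (columns), with genes ordered from the smallest to the largest SD after subtraction of the library median and the first and the last 10 rows named. Columns are nearly uniform in colour from Rps9 at the top down to the last rows, where Rpl30, Rps4y2 and Rps27 depart from the others, and values beyond 0.6 on either side share the end colour.

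Rps9, a protein of the small subunit, had the smallest SD after subtraction of the library median. Its values were 0.13 and -0.051 in normal, -0.016 and -0.078 in NC-miR day 2, -0.44 and -0.19 in NC-miR day 4, 0.22 and 0.039 in miR-29a, and -0.28 and 0.24 in miR-29b. It thus carried the common pattern almost without deviation. The lowest of the 10 libraries was NC-miR day 4 replicate 1 for 64 of the 81 genes and miR-29b replicate 1 for 15, and the highest was miR-29b replicate 2 for 49, normal replicate 1 for 16 and miR-29a replicate 1 for 12.

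The stalk of the large subunit, which recruits and activates translation factors, is built from Rplp0 and the acidic proteins Rplp1 and Rplp2. Rplp0 was 0.14 and -0.026 in normal, -0.35 and -0.20 in NC-miR day 4, and 0.20 and 0.049 in miR-29a. Rplp1 was 0.24 and 0.069 in normal, -0.60 and -0.39 in NC-miR day 4, and 0.047 and 0.039 in miR-29a. Rplp2 was 0.086 and -0.13 in normal, -0.58 and -0.32 in NC-miR day 4, -0.012 and 0.075 in miR-29a, and 0.031 and 0.54 in miR-29b. All 3 stalk genes had both NC-miR day 4 libraries below both normal and both miR-29a libraries. None passed the test: the smallest adjusted p for NC-miR day 4 against normal among the 3 was 0.184, for Rplp1 (limma, Benjamini-Hochberg, log2 difference -0.65 ± 0.19, standard error, n = 2 per group).

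Rpl5 and Rpl11, which bind 5S ribosomal RNA and, when free of ribosomes, the p53 regulator Mdm2, were -0.34 and 0.019, and -0.38 and -0.13, in NC-miR day 4. Rps6, the substrate of the S6 kinases downstream of mTOR, was -0.22 and -0.020 there and 0.27 and 0.14 in miR-29a. Rps19, mutated in Diamond-Blackfan anaemia, was -0.53 and -0.27 in NC-miR day 4, 0.23 and -0.030 in normal, and 0.19 and 0.15 in miR-29a. For Rpl5 and Rps6, NC-miR day 4 overlapped normal (normal replicate 2 was -0.055 and -0.068), while for Rpl11 and Rps19 both NC-miR day 4 libraries were the lower ones. For Rpl11 this was nearly a tie, at -0.135 in NC-miR day 4 replicate 2 and -0.133 in normal replicate 2.
Rpsa, also known as the laminin receptor, was -0.23 and -0.14 in NC-miR day 4 and 0.23 and 0.091 in miR-29a. Rps3, also a DNA repair enzyme, was -0.33 and -0.17 there and 0.18 and 0.10 in miR-29a. Rps27a, which is made as a fusion with ubiquitin, was -0.44 and -0.19 in NC-miR day 4 and 0.21 and 0.13 in miR-29a. Each of these kept NC-miR day 4 and miR-29a apart.

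The smallest SD over the 10 libraries belonged to Rpl7l1 (0.11), Rps27l (0.14), Rpl7a (0.15), Rpl7 (0.16) and Rps25 (0.16), and the largest to Rps27 (1.40), Rpl30 (0.70), Rps4y2 (0.65), Rps28 (0.36) and Rps21 (0.32). Rpl7l1 and Rps27l are paralogs of canonical ribosomal proteins, and neither followed the block. Rpl7l1 was -0.030 and -0.042 in NC-miR day 4, 0.10 and 0.18 in normal and -0.26 and -0.045 in NC-miR day 2, and its correlation with the median of the other members was 0.18. Rps27l had a correlation of 0.49. The partner Rpl7 was -0.21 and -0.080 in NC-miR day 4 and 0.19 and 0.17 in miR-29a.
The other paralogs followed the block more closely. Rpl22l1, which can take the place of Rpl22, was -0.63 and -0.10 in NC-miR day 4, where Rpl22 was -0.38 and -0.089. The correlation with the block was 0.72 for Rpl22l1. Rpl36a was -0.55 and -0.14 in NC-miR day 4, and Rpl36al was -0.28 and -0.13. Rpl10l, Rpl39l and Rpl3l, paralogs known from testis or muscle, were at the floor in all 10 libraries, while Rpl10 (-0.22 and -0.19 in NC-miR day 4), Rpl39 (-0.72 and -0.21) and Rpl3 (-0.34 and -0.10) followed the block. Rps4x was -0.34 and -0.067 in NC-miR day 4 and 0.20 and 0.17 in miR-29a.

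NC-miR day 4 was compared with normal, whose tissue was taken on day 0. Of the 81 genes, Rpl30 alone passed the test, and it was lower in NC-miR day 4 (limma on the 13051 tested features, Benjamini-Hochberg adjusted p under 0.05). Over all features, 0.383% were called in this comparison and 0.115% were called lower. Rpl30 encodes a small protein of the large subunit at the contact with the small subunit. Its values were 0.26 and -0.15 in normal, -0.44 and 0.0028 in NC-miR day 2, -1.61 and -1.56 in NC-miR day 4, 0.21 and -0.17 in miR-29a, and -0.12 and 0.30 in miR-29b. Both NC-miR day 4 libraries lay below all 8 others, which ranged from -0.44 to 0.30. The difference of NC-miR day 4 from normal was -1.64 ± 0.23 (log2, standard error, n = 2 per group, limma adjusted p = 0.0338), a 3.11-fold lower value.
The call was kept in 7 of 17 alternatives. With a normal library left out, the adjusted p was 0.190 (replicate 1) and 0.141 (replicate 2). With an NC-miR day 4 library left out, it was 0.131 (replicate 1) and 0.0942 (replicate 2). Leaving out a miR-29a library gave 0.0620 (replicate 1) and 0.0661 (replicate 2), and leaving out a miR-29b library gave 0.0563 and 0.0528. The adjusted p was 0.110 with no filter on low values and 0.0625 with the replicate number as a block. The log2 difference stayed between -1.84 and -1.43 in all 17.

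Rpl30 differed by about as much from the other day 4 groups without passing. It was higher by 1.60 ± 0.23 in miR-29a (adjusted p = 0.328) and by 1.67 ± 0.23 in miR-29b (adjusted p = 0.140) than in NC-miR day 4, and NC-miR day 4 stood at -1.36 ± 0.23 from NC-miR day 2 (adjusted p = 0.344). These differences share the NC-miR day 4 libraries. In the test for any difference among the 5 groups, 0 of the 81 genes passed (0.375% of all features did), and Rpl30 had the smallest adjusted p, 0.0586. The features whose values were most like those of Rpl30 over the 10 libraries (Pearson r, 13051 features searched) were Rabac1 (0.956), 2010003O02Rik (0.952), the small nucleolar RNA Snord16a (0.947, which lay at the floor in each NC-miR day 4 library), Arl4d (0.942) and Tmem219 (0.941), none of them a ribosomal protein gene.

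Rps27, a zinc finger protein of the small subunit, had the widest swings. It was 1.90 and 1.88 in normal, 1.79 and -0.037 in NC-miR day 2, -1.77 and -0.92 in NC-miR day 4, -1.18 and -0.83 in miR-29a, and 0.86 and -0.79 in miR-29b. The normal libraries were close to each other and above all others, and the replicates of NC-miR day 2 and of miR-29b stood far apart. NC-miR day 4 differed from normal by -3.24 ± 0.66 (adjusted p = 0.0886), which did not pass. With only the 4 libraries compared in the fit, its adjusted p was 0.0327 and 2 members were called.
Rps4y2, annotated in GENCODE under the name Rps4l as a transcribed processed pseudogene, was -0.79 and -0.88 in normal, 0.65 and 0.059 in NC-miR day 2, -0.64 and 0.96 in NC-miR day 4, -0.28 and -0.57 in miR-29a, and 0.020 and 0.55 in miR-29b. Its correlation with the median of the other members was -0.013, so it did not behave as one of the block. The difference of NC-miR day 2 from normal was 1.19 ± 0.46 (adjusted p = 0.273).

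Most ribosomal protein genes have near-identical copies, and the authors' counting could split reads among them. In GENCODE M21, 78 of the 84 members with a coding sequence had at least 1 other transcript with 95% identity or more over 90% or more of the coding sequence, with a median of 5 such genes and as many as 56 for Rpl21. For 15 members such a copy was listed in the files under its own name. The sequences below are 60-base stretches of the coding sequence of Rpl30, Rps27 and Rpl26 and of the listed copy of each, from GENCODE transcripts, with the base that differs in capitals. They are shown because gene and copy can be told apart there by at most 1 base, and for Rps27 by none. Positions count from 1 at the first base of the member's coding sequence.
Rpl30: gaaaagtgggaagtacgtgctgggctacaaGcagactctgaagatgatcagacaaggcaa
Gm12191: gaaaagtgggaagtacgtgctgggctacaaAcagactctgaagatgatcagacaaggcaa
Rps27: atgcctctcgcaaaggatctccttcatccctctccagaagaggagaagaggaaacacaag
Gm9846: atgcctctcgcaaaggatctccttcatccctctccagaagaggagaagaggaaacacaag
Rpl26: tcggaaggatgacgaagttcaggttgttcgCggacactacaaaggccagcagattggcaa
Gm15772: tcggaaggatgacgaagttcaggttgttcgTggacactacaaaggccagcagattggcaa

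Rpl30 (chr15:34440505-34443640, minus strand, mm10) and the processed pseudogene Gm12191 (chr11:49678710-49679057, minus strand) differed at 1 of 345 coding bases, G96A. Gm12191 was 0.11 and 0.014 in normal, 0.0093 and -0.046 in NC-miR day 2, -0.39 and -0.074 in NC-miR day 4, -0.0011 and 0.12 in miR-29a, and -0.31 and 0.18 in miR-29b. It stayed within 0.17 of the median of the 81 genes in all 10 libraries, where Rpl30 departed from that median by as much as 1.39. The copy differed from normal by -0.29 ± 0.18 in NC-miR day 4 (limma adjusted p = 0.481).
Rps27 (chr3:90212522-90213651, minus strand) and Gm9846 (chr9:114982366-114982739, minus strand) were identical over all 252 coding bases, and GENCODE lists the copy as the protein-coding gene Rps27rt. Gm9846 was 0.30 and -0.015 in normal, -0.62 and -0.17 in NC-miR day 4, and 0.067 and 0.17 in miR-29a, within 0.33 of the median of the 81 genes in every library, where Rps27 departed by as much as 1.94.

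Rpl26 (chr11:68901583-68906989, plus strand), a protein near the exit of the large subunit, was at the floor in 9 of 10 libraries and so was not tested. In miR-29b replicate 1 it was 3.08 above the floor on the log2 scale, an 8.48-fold distance. Its copy Gm15772 (chr5:3236431-3236868, plus strand), with 2 differences in 435 coding bases (C177T and T288C), was above the floor in all 10 libraries and followed the block, at -0.31 and -0.15 in NC-miR day 4 and 0.18 and 0.13 in miR-29a. By the largest distance from the block's median in any library, the ribosomal protein gene stayed closer than its listed copy in 13 of 16 pairs of gene and copy, and Rpl30, Rps27 and Rpl26 were the 3 exceptions. Among the 9 pairs whose copy was tested, the gene was the closer one in 6. Rpl34 was one of these, since it stayed within 0.25 of the block's median (-0.13 and -0.30 in NC-miR day 4, 0.35 and 0.22 in miR-29a), while its processed pseudogene Rpl34-ps1 ranged from -2.20 to 0.85. How reads were assigned between gene and copy is not given in the sources used here. The values of all 78 members with a near-identical copy are therefore uncertain, Rpl30, Rps27, Rpl26 and Rpl34 among them. The part of read assignment in the call of Rpl30 was not tested.

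**Figure D3:**
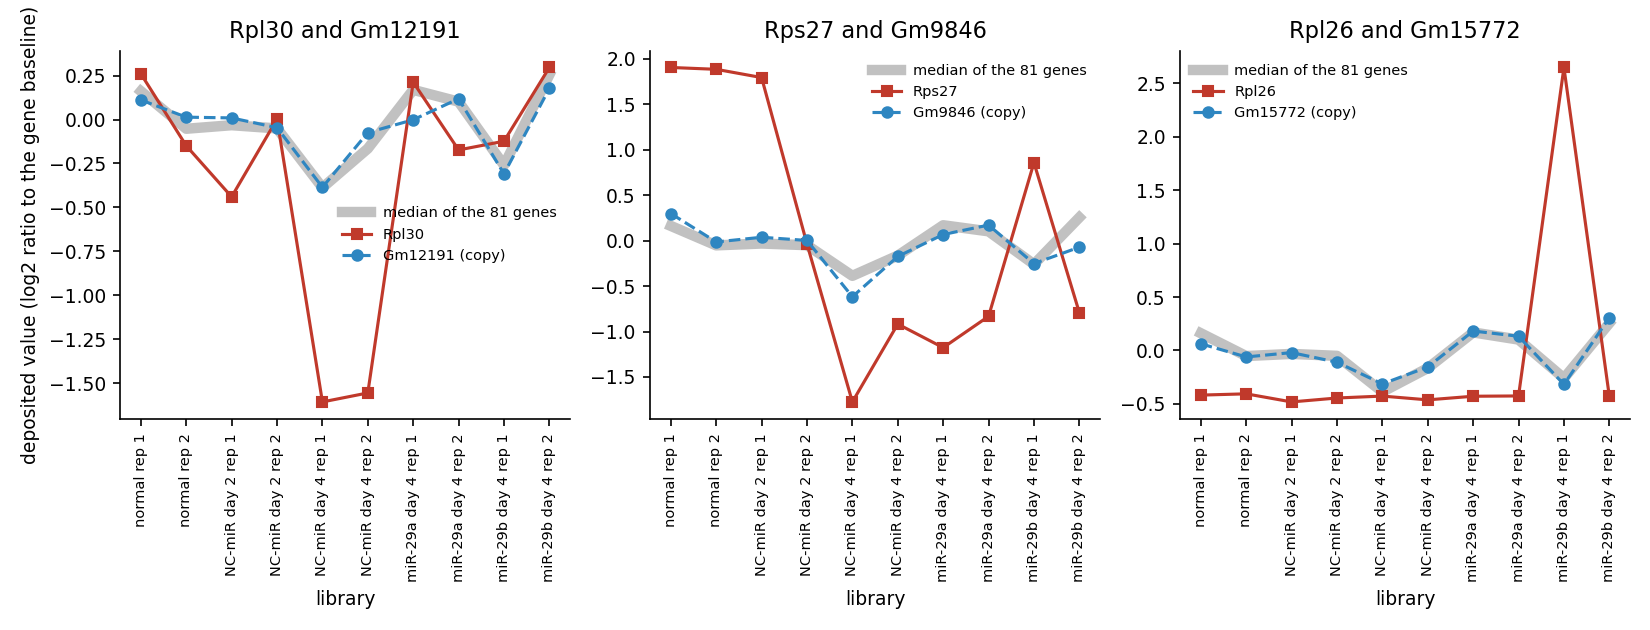
Deposited values (log2 ratio to the gene baseline, y axis) of Rpl30, Rps27 and Rpl26 (squares) and of a listed near-identical copy of each (circles) in the 10 libraries (x axis), with the median of the 81 genes as a grey line. The copies stay near the grey line, within 0.17, 0.33 and 0.099 of it, while the genes leave it.

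In the comparison of NC-miR day 4 with normal, 80 of 81 genes were below normal, and for 66 of them (81.5%) the groups did not overlap. Among all features 55.4% were below normal, and 27.8% were lower without overlap. The median difference was -0.32 over the 81 genes and -0.035 over all features. Because the genes vary together, these counts are not independent observations, and no test was made over the list. At an unadjusted p under 0.05, 12 of 81 were lower (14.8%), against 9.09% of all features. Besides Rpl30 and Rps27, the smallest p was that of Rps29, a short zinc-binding protein of the small subunit, at 0.31 and 0.11 in normal and -0.75 and -0.31 in NC-miR day 4 (-0.74 ± 0.19, adjusted p = 0.139).
Leaving out NC-miR day 4 replicate 1, the library with the high squamous markers, gave a median difference of -0.21, and leaving out normal replicate 2 gave -0.44. The part of squamous epithelium in these values was not tested, nor was that of colonocytes or B cells. All 10 colonocyte markers were higher in NC-miR day 4 than in normal by group mean (median difference 0.83, with 1 called). All 9 tested B cell markers were lower (median difference -1.61, with 0 called).

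NC-miR day 2 lay close to normal. The median difference was -0.10 over the 81 genes and -0.058 over all features, 78 of 81 genes were below normal (58.8% of all features), and 27 did not overlap (33.3%, against 30.5% of all features). None of the 81 passed the test, where 1.22% of all features did, and at an unadjusted p under 0.05 1 was higher (Rps4y2; 6.57% of all features) and 1 lower (Rpl7l1, -0.29 ± 0.12, adjusted p = 0.315; 8.67% of all features). Rpl17 (0.049 ± 0.22) also had a difference above 0, and among the genes below it, Rps27 (-1.02 ± 0.66) and Rplp1 (-0.27 ± 0.19) followed Rpl7l1 by p. The median difference became 0.0040 when normal replicate 1 was left out and -0.22 when normal replicate 2 was, so its direction rests on normal replicate 1. With each library centred on its median, it was -0.051, and 60 of 81 genes were below normal.

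Between NC-miR day 2 and day 4, 80 of 81 genes were lower on day 4, and for 68 (84%) the groups did not overlap, against 45.3% and 16.1% of all features. The median difference was -0.23, where all features gave 0.021. None of the 81 passed (0.0153% of all features did), and 5 had an unadjusted p under 0.05 (6.17%, against 4.08% of all features that were lower): Rpl30, Rps27 (-2.22 ± 0.66), Rps28 (-0.57 ± 0.23), Rps29 (-0.48 ± 0.19) and Rps20 (-0.40 ± 0.17). Rpl7l1 was the gene above 0 (0.12 ± 0.12). Leaving out NC-miR day 4 replicate 1 gave a median of -0.11, and leaving out replicate 2 of that group gave -0.33.

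Against NC-miR on day 4, no ribosomal protein gene passed the test with miR-29a (0% of all features did), and nearly all lay on 1 side: 80 of 81 were higher with miR-29a, and for 78 (96.3%) both miR-29a libraries were above both NC-miR libraries. Among all features 53.4% were higher and 22.4% were higher without overlap. The median difference was 0.41 over the 81 genes and 0.017 over all features, and the median standard error of a gene was 0.19. At an unadjusted p under 0.05, 28 of 81 were higher (34.6%, against 5.01% of all features) and 0 were lower (2.62% of all features). After Rpl30, the smallest p were those of Rps21, at -0.68 and -0.47 in NC-miR day 4 and 0.11 and 0.20 in miR-29a (0.73 ± 0.19, adjusted p = 0.566), and Rps20, at -0.54 and -0.29 against 0.10 and 0.087 (0.51 ± 0.17, adjusted p = 0.620). Rps4y2 was the gene below 0 (-0.59 ± 0.46). Leaving out any 1 of the 4 libraries gave medians of 0.30 to 0.52.

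Against the same NC-miR day 4 libraries, miR-29b gave a median difference of 0.26 over the 81 genes and 0.018 over all features, with 79 of 81 above 0 (53% of all features). The groups did not overlap for 20 (24.7%), close to the 22.7% of all features, and none passed (0% of all features). The median was 0.54 without miR-29b replicate 1 and 0.0020 without miR-29b replicate 2, so 1 library decides it. At an unadjusted p under 0.05, 11 were higher (13.6%, against 6.69% of all features). They included Rplp2 (0.74 ± 0.19, adjusted p = 0.335), Rps21 (0.66 ± 0.19, adjusted p = 0.339) and Rps28 (0.80 ± 0.23, adjusted p = 0.339). Rpl4 (-0.044 ± 0.17) and Rpl35 (-0.028 ± 0.18), proteins of the large subunit, were the 2 below 0.
Between miR-29a and miR-29b, 68 of 81 genes were higher with miR-29a (51.8% of all features), but the groups did not overlap for only 12 (14.8%, against 20.3% of all features), and none passed (0% of all features) or had an unadjusted p under 0.05 (3.72% of all features were higher and 3.71% lower by that rule). The median difference was 0.14, and it was -0.14 without miR-29b replicate 1 and 0.38 without miR-29b replicate 2. By p, Rps25 (0.32 ± 0.14), Rpl4 (0.36 ± 0.17) and Rpl3 (0.34 ± 0.17) led those higher with miR-29a, and Rps27 (-1.04 ± 0.66), Rps4y2 (-0.71 ± 0.46) and Rplp2 (-0.25 ± 0.19) those lower. The library miR-29b replicate 1 also had the lowest crypt and cell cycle markers, whose part in these values was not tested. All 10 epithelial markers were lower with miR-29a than with miR-29b by group mean (median difference -0.31). Against NC-miR day 4, 9 of the 10 were higher with miR-29b (median difference 0.46). Their part was not tested either.

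**Figure D4:**
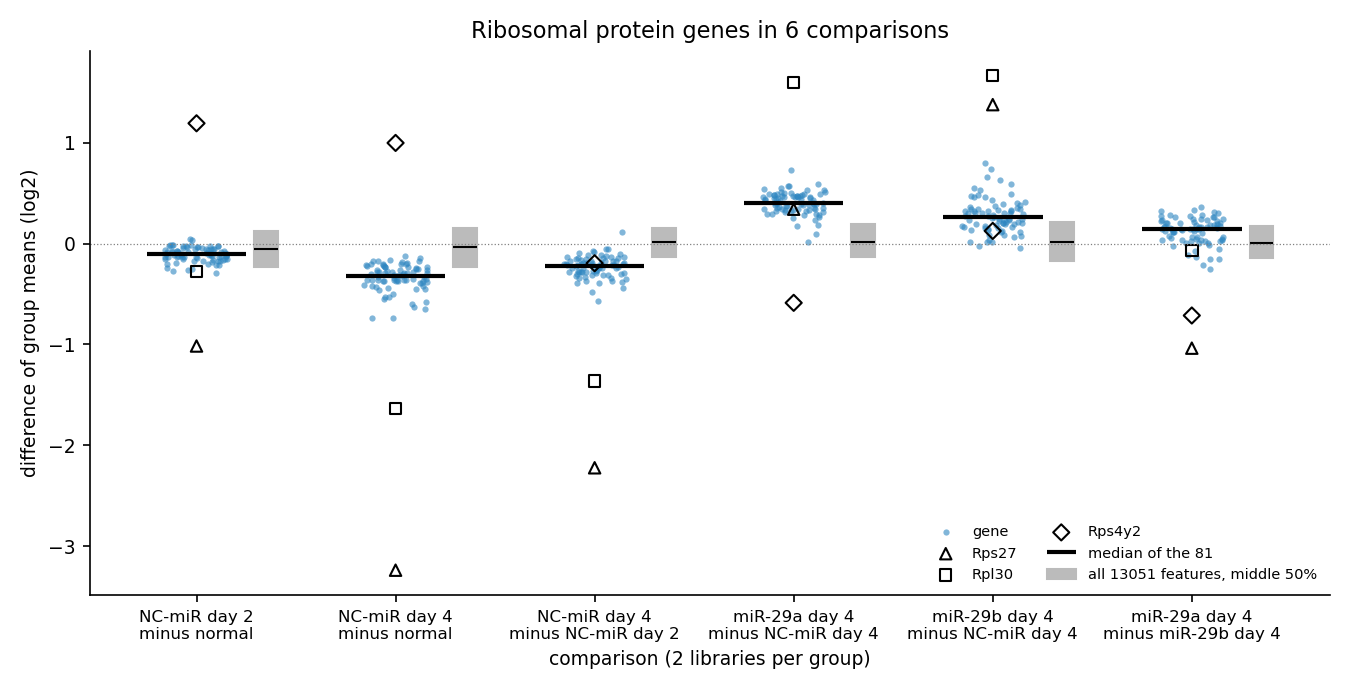
Difference of group means (log2, y axis) of each of the 81 genes in 6 comparisons of 2 libraries with 2 (x axis), with a bar at the median of the 81, open symbols for Rps27, Rpl30 and Rps4y2, and a grey box for the interquartile range of all 13051 tested features with their median. The genes form a narrow band whose median is -0.32 for NC-miR day 4 minus normal and 0.41 for miR-29a minus NC-miR day 4, outside the grey boxes, and comparisons that share a group share its libraries.

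The block's values also moved with transcript length, which is short for most of these genes (median 705 bases in the principal GENCODE transcript, down to 271 for Rps28). Over the 80 genes with a length, Spearman's rho between value and length was 0.50 and 0.42 in NC-miR day 4 and 0.41 and 0.039 in miR-29a. It was -0.42 and -0.038 in normal, -0.37 and -0.17 in miR-29b and 0.20 and -0.070 in NC-miR day 2, where genes share a library and the values describe that library. In NC-miR day 4 replicate 1, 19 genes of up to 500 bases had a median of -0.50 and 18 genes over 1000 bases had -0.34. The wide separations of Rps28, Rps29 (390 bases) and Rps21 (394 bases) belong to that short end. Rps20, also among the smallest p, does not by its listed length of 3706 bases, although its coding sequence has only 357.
Short features outside the block lay closer to 0 in NC-miR day 4 and miR-29a. The median of 388 tested features of up to 705 bases that are not members was -0.13 and -0.094 in NC-miR day 4, where the block was -0.39 and -0.17, and -0.037 and 0.0087 in miR-29a, where it was 0.17 and 0.10. In normal replicate 1 and miR-29b replicate 2, short features were at 0.17 and 0.20, near the block's 0.16 and 0.25. With each library's trend on length (fitted to features that are not members) subtracted, the median difference over the 80 genes was -0.16 for NC-miR day 4 against normal, 0.016 for NC-miR day 2 against normal, -0.17 for NC-miR day 4 against day 2, 0.33 for miR-29a and 0.085 for miR-29b against NC-miR day 4, and 0.23 for miR-29a against miR-29b. Rpl30 was still called lower in NC-miR day 4 (-1.45, limma adjusted p = 0.0243).

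**Figure D5:**
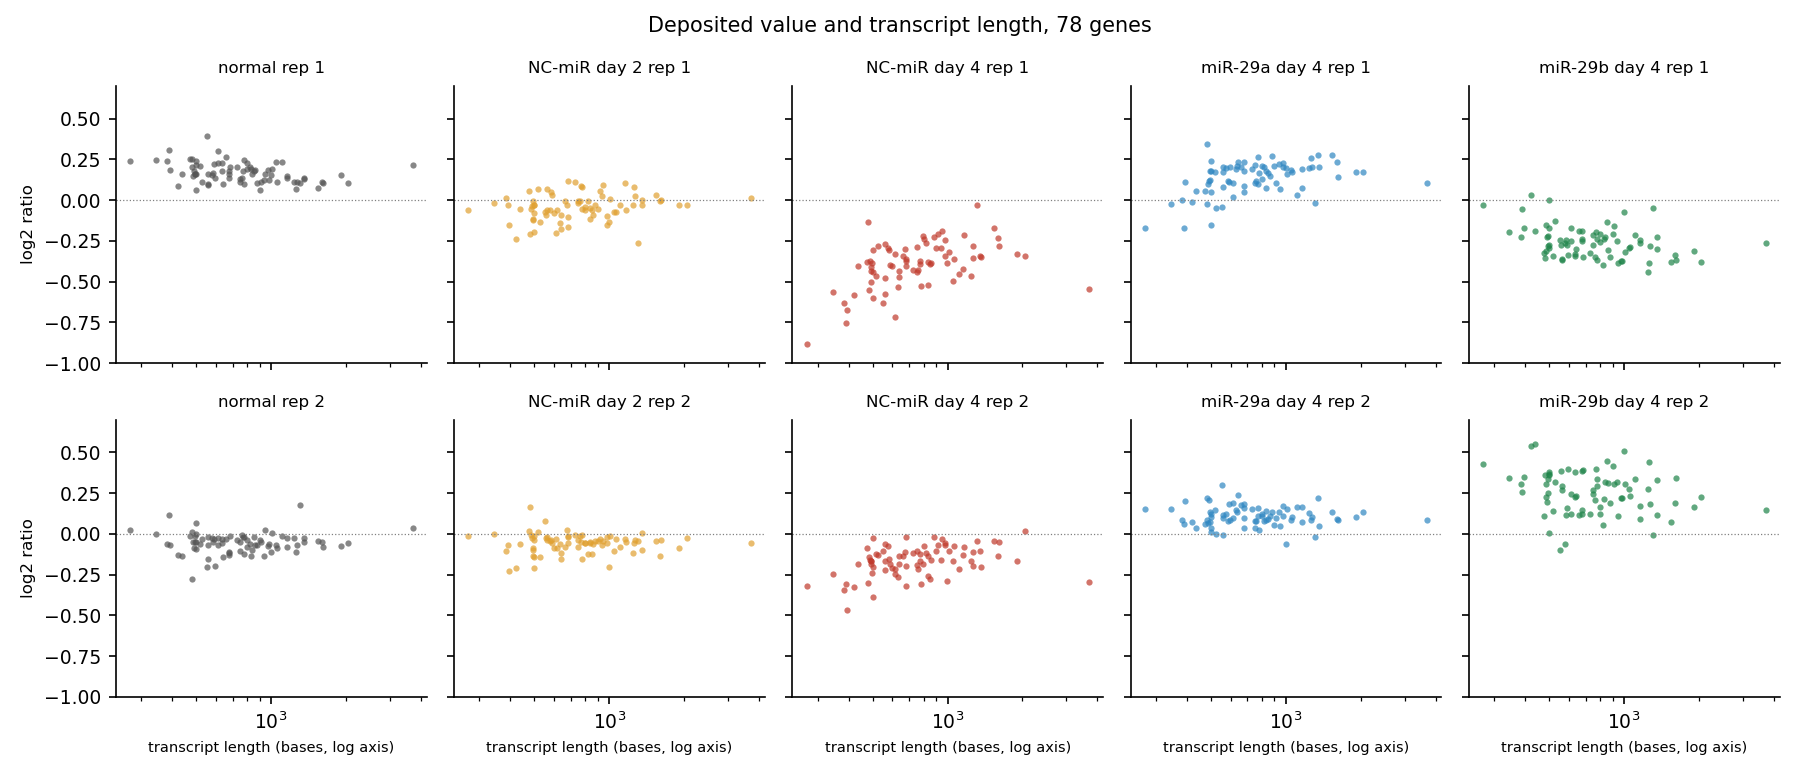
Deposited value (log2 ratio to the gene baseline, y axis) against length of the principal transcript (bases, log axis) for 78 ribosomal protein genes with a length, Rps27 and Rpl30 being left out for scale, in 1 panel per library. In NC-miR day 4 replicate 1 the shortest genes lie lowest, with a median of -0.50 for genes of up to 500 bases and -0.34 for genes over 1000 bases.

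Genes of the ribosome that the symbol rule does not catch followed the block. Fau, a fusion with a ubiquitin-like protein and the precursor of small-subunit protein eS30, was -0.41 and -0.27 in NC-miR day 4 and 0.22 and 0.16 in miR-29a. Gnb2l1 (RACK1), a scaffold bound to the small subunit, was -0.35 and -0.20 and then 0.19 and 0.12. Both genes had NC-miR day 4 wholly below miR-29a.
The elongation factors Eef1a1, which brings aminoacyl-tRNA to the ribosome, and Eef2, which drives translocation, are encoded by TOP mRNAs as well. Eef2 was -0.18 and -0.21 in NC-miR day 4 and 0.19 and 0.20 in miR-29a (0.39 ± 0.12, limma adjusted p = 0.620), and Eef1a1 was -0.13 and -0.049 and then 0.38 and 0.14 (0.35 ± 0.16, adjusted p = 0.674). Of the 25 translation factors and related genes (Eef1a1, Eef2, Fau and Gnb2l1 included), 24 were higher with miR-29a than with NC-miR on day 4, with a median difference of 0.22, and 2 were higher in NC-miR day 4 than in normal, with a median of -0.17. None of the 25 was called in any of the 6 comparisons.

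Genes that build ribosomes had median differences near 0 in miR-29a against NC-miR on day 4 and in NC-miR day 4 against normal. Of 42 ribosome biogenesis genes, 23 were higher with miR-29a than with NC-miR on day 4, with a median difference of 0.021, and 20 were higher in NC-miR day 4 than in normal, with a median of -0.010. The nucleolar proteins Ncl and Fbl (the methyltransferase fibrillarin) were -0.19 and 0.29, and -0.45 and 0.13, in NC-miR day 4, and Npm1 (nucleophosmin), of the translation list, was -0.36 and 0.20, so the replicates lay on opposite sides of 0. Polr1c, a subunit of RNA polymerases I and III, differed by -0.52 ± 0.17 in NC-miR day 4 against normal (adjusted p = 0.223), Nop10, of box H/ACA ribonucleoproteins, by -0.54 ± 0.19 (adjusted p = 0.234), and Rrp9, of the U3 small nucleolar ribonucleoprotein, by 0.58 ± 0.20 (adjusted p = 0.235). In the other comparisons, the median over the 42 was 0.16 for miR-29b against NC-miR on day 4 (31 above 0). It was -0.11 for NC-miR day 2 against normal (16 above 0) and 0.076 for NC-miR day 4 against day 2 (27 above 0). For miR-29a against miR-29b it was -0.10 (10 above 0). None of the 42 was called in any comparison.
Among 20 tested regulators of growth and ribosome synthesis, none was called either. Myc, a transcription factor that activates ribosomal genes, was -0.40 and 0.053 in normal, 0.15 and 0.12 in NC-miR day 4, 0.057 and 0.18 in miR-29a and 0.34 and 1.06 in miR-29b. Mtor was -0.025 and 0.088 in NC-miR day 4 and 0.021 and 0.20 in miR-29a. Max, the partner of Myc, differed by 0.71 ± 0.14 (adjusted p = 0.0635) and Mxd1, a competitor of Myc, by 0.88 ± 0.20 (adjusted p = 0.0967) in NC-miR day 2 against normal. Eif4ebp1, the translation inhibitor that mTOR phosphorylates, was higher by 0.62 ± 0.16 with miR-29b than with NC-miR on day 4 (adjusted p = 0.338), and Sesn1, a stress-induced inhibitor of mTOR signalling, by 0.58 ± 0.18 with miR-29a (adjusted p = 0.620). Neither Myc nor Mtor separated NC-miR day 4 from miR-29a as the block did.

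Mitochondrial ribosomal proteins, a separate set of 76 genes that was added after the values had been seen, had medians of -0.10 and 0.042 in NC-miR day 4 and -0.070 and -0.049 in miR-29a. Their median difference for miR-29a against NC-miR on day 4 was -0.027, with 32 of 76 above 0. For 51 respiratory chain subunits that median was 0.050, with 33 above 0, and for 14 proteasome subunits it was 0.0058, with 7 above 0. Some cell markers rose in the same comparison. All 9 tested B cell, all 9 macrophage and all 9 smooth muscle markers were higher with miR-29a by group mean. Their median differences were 0.58, 0.19 and 0.35. By library, the B cell medians were -0.20 and -0.27 in NC-miR day 4 and 0.72 and -0.15 in miR-29a. Macrophage medians were 0.073 and -0.33, then 0.32 and 0.031, and smooth muscle medians 0.087 and -0.45, then 0.065 and 0.18. The macrophage and smooth muscle medians thus overlapped between the groups. Of 6 T and NK cell markers 5 were higher (median difference 0.39), and of 5 neuron and glia markers 4 (0.25). Of 12 crypt and cell cycle markers 4 were higher (-0.18), of 8 goblet cell markers 4 (0.0068), and of 3 squamous markers 0 (-2.74). The part of these cells in the values was not tested. For miR-29b against NC-miR on day 4, the median difference was 0.23 for the respiratory chain (48 of 51 above 0) and 0.15 for the proteasome (12 of 14), beside 0.26 for the cytosolic ribosomal proteins. In NC-miR day 4 against normal, the median difference was -0.17 for the proteasome (3 of 14 above 0) and -0.12 for the respiratory chain (8 of 51). The mitochondrial ribosomal proteins had -0.071 there (25 of 76), beside -0.32 for the cytosolic ones. NC-miR day 2 against normal gave -0.17, -0.12 and -0.13 in the same order, beside -0.10 for the cytosolic ones. NC-miR day 4 against day 2 gave 0.021, 0.0077 and 0.026, beside -0.23. None of these genes was called in any of the 6 comparisons.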

How the data were processed

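RNA of 10 mouse colorectum libraries was prepared with a TruSeq stranded mRNA kit, per the labels' protocols. The submitters' processing notes name TopHat2 2.0.13, Bowtie2 2.2.3, SAMtools 0.1.19, Cuffnorm 2.2.1 and build mm10, without settings. The column the authors deposited is headed FPKM, but holds log2 ratios to an unstated gene baseline, made in a way not given in the sources used here; 99.3% of 5388 distances from the floor fell on a grid of 6 digits with base 2. The most frequent value of each library (9322 features) marks the floor; a feature was at the floor where 2 or more libraries shared its lowest value within 5e-05. The design assumed the log2 scale and needed no pseudocount. Depth is unknown.

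limma 3.58.1 (R 4.3.3) fitted 5 group means to all 10 libraries over 13051 of 23284 features (5 residual and 3.26 prior degrees of freedom), with Benjamini-Hochberg adjustment over all of them, 2-sided p and calls under 0.05. The fit was tested on simulated data. Errors are limma standard errors, n = 2 per group. Copies were found with blastn 2.17.0 in GENCODE M21. Length trends were lowess curves (span 0.3). The members and gene lists were chosen with earlier results of these data known. Genes named were the called members, the 3 of smallest p per direction and comparison, the 5 largest and smallest SD, the stalk genes, paralogs and fixed ribosomal and pathway genes, up to 3 per list and comparison; 5 features were named by correlation with Rpl30, and Rps9, Rpl34 and the copies were named after their values were seen. Alternatives were other filters, centring, robust moderation, a replicate block, fits of the compared libraries only, each library left out, and the length trend, the last added after seeing the data.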

Additional observations from a re-analysis of the deposited data

How the results depend on the processing

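The count of ribosomal protein genes called in NC-miR day 4 against normal (1) was 0 with no filter, 0 with the replicate block, 2 with only the compared libraries in the fit (Rpl30 and Rps27), and 0 to 1 when each library was left out. The count for a difference among any of the 5 groups (0) was 1, Rpl30, with features above the floor in all 10 libraries and with the length trend removed, and 0 to 1 when each library was left out. Without miR-29b replicate 2, Rpl26 entered the test through the remaining miR-29b library, which gave counts of 0 to 1 for miR-29b against NC-miR day 4 and for miR-29a against miR-29b. When each library was left out, the median difference of the genes ran from 0.0020 to 0.54 for miR-29b against NC-miR day 4 and from -0.14 to 0.38 for miR-29a against miR-29b. Centring each library on its median changed no count of ribosomal protein genes called and gave median differences of -0.051 for NC-miR day 2 against normal (60 of 81 genes below 0, against 78 uncentred), -0.29 for NC-miR day 4 against normal and 0.39 for miR-29a against NC-miR day 4. Whether the replicate numbers pair the samples cannot be settled here, since each group gives only 1 replicate difference. Over 10 pairs of groups, the correlation of replicate differences was -0.24 to 0.11, with 1 above 0.1. The replicate block changed no other count of ribosomal protein genes called, and those counts were already 0 without it. Over all features, the count called in NC-miR day 4 against normal was 50, and it was 22 with no filter, 30 with the replicate block and 10 to 86 when each library was left out; in NC-miR day 2 against normal it was 159, and 28 with no filter, 44 with only the compared libraries and 17 to 276 when each library was left out. The count over all features for any of the 5 groups was 49, and 15 with no filter, 28 with the replicate block and 9 to 168 when each library was left out. With 2 libraries per group and no depths, the precision of low values cannot be given.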
